A study of Mus musculus with 62 samples.

Results

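Neocortex of mice carrying a melanoma that causes wasting was set against neocortex of mice carrying a melanoma that does not, 4 weeks after injection of the cells. The comparison took the libraries labelled for cachectic melanoma cells at 4 weeks (CAC, 5 libraries) and those for non-cachectic melanoma cells at 4 weeks (NCAC, 5 libraries), 10 of the 62 libraries of the series. All mice were female, were 2 months old and received an injection of melanoma cells, and the 5 mock-injected mice of 4 weeks are given as a further level. The design text names NCI Ath/nude mice and the sample labels name C57BL6/J, so the strain is uncertain. No body weights or tumour sizes were among the files used, so how far each mouse had wasted is unknown. The labels call the libraries biological replicates, 1 library per sample. All CAC libraries and NCAC replicates 1 to 4 ran on sequencing lane 3, while NCAC replicate 5 and the mock libraries ran on lane 4.

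In cachexia, muscle and fat are lost under the influence of signals from a tumour and from the host. The brain responds to such illness through cytokine receptors on vessels and glia, and through glucocorticoids released by the adrenal gland, which enter the brain and act on nuclear receptors. Known brain targets of these hormones include Fkbp5, a chaperone partner of the glucocorticoid receptor, and Sgk1, a kinase that controls ion transport. Lrg1, Lcn2 and Osmr are known from inflamed vessels and glia.

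Levels are in TPM, transcripts per 1000000 transcripts, so a level is a share of that library's RNA. Genes whose mean over the 62 libraries reached 1 TPM, 14494 in number, were fitted as log2(TPM + 1) with limma over all 12 groups of the series, and a gene counted as called at a Benjamini-Hochberg adjusted p under 0.05. Differences are log2(TPM + 1) in CAC minus NCAC, a scale that understates the change of genes near 1 TPM. The tissue is a bulk sample, in which fewer cells of a type and less RNA per cell cannot be told apart. The excitatory neuron markers of cortex summed to 2960 to 3570 TPM in CAC libraries, against 2720 to 3300 TPM in NCAC libraries, and Slc17a7, the vesicular glutamate transporter of cortical excitatory cells, had 965 to 1160 TPM in CAC and 896 to 1160 TPM in NCAC libraries. Of 10 pigment cell markers, 8 stayed under 1 TPM in all 10 libraries, including Tyr, Dct and Mlana, and their sum was 5.61 to 6.71 TPM in CAC and 6.2 to 8.01 TPM in NCAC libraries.

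Zfp459 was the only gene called at 4 weeks. It encodes a zinc finger protein and lies on chromosome 13 at 67405709 to 67421418, minus strand, in the GENCODE vM21 annotation of GRCm38. The 250 bases before its RefSeq start site (GRCm38.p6, chr13:67421419-67421668, minus strand) are shown because it alone passed the test. Capitals mark CACGTG, a palindromic E-box, which 6.02% of all 32851 promoter windows of this length hold. The motif was picked after the sequence was seen, and is a description of the letters.
Zfp459: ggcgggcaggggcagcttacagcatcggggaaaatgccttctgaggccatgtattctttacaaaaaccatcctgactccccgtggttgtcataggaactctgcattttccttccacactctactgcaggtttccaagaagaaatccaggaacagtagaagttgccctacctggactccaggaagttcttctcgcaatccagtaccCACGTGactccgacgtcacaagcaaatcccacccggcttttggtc

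Zfp459 stood at 3.19, 2.11, 4.88, 3.2 and 1.94 TPM in CAC replicates 1 to 5, against 1.15, 1.49, 0.902, 0.98 and 0.758 TPM in NCAC replicates 1 to 5. Mock libraries lay between 0.74 and 1.04 TPM. Every CAC library was above every NCAC and mock library, with replicate 3 the highest. The difference was 0.95 (SE 0.177, adjusted p = 0.0251 by limma, n = 5 each). It is a low transcript, and zinc finger genes of this kind lie in clusters of similar copies, so how reads were shared between copies is uncertain. At 2, 6 and 8 weeks Zfp459 differed by -0.33, -0.08 and -0.07 between CAC and NCAC, with adjusted p of 0.998, 0.795 and 0.85 by limma. The change of the difference between 4 and 8 weeks was 1.01, with an adjusted p of 0.239 by limma, so it was not shown to differ between these times. Among the 9 libraries of lane 3, which leave out NCAC replicate 5, the difference was 0.893 with an adjusted p of 0.163 by limma. The call was also lost without CAC replicate 1 (adjusted p = 0.135 by limma), CAC replicate 4 (0.139), NCAC replicate 3 (0.144) or NCAC replicate 4 (0.0564).

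Over all tested genes, 0.0069% were called higher in CAC at 4 weeks and 0 lower (0%). At an unadjusted p under 0.05 there were 1981 higher genes (13.7%) and 380 lower genes (2.62%). In 141 genes (0.973%) all CAC libraries lay above all NCAC libraries, and in 33 genes (0.228%) all lay below. The median difference of all genes was 0.0479, and 66.8% of genes were above 0. This tilt depended on scaling: with TMM scaling of the TPM values the counts at an unadjusted p under 0.05 were 1269 higher and 987 lower, and 50% of genes were above 0. Zfp459 was the single call under that scaling too.

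The count of calls depended on which library was left out. Without CAC replicate 5 there were 1566 calls among the 14494 tested genes, 1409 higher and 157 lower. These included 179 of the 636 genes called higher at 8 weeks and 21 of the 237 called lower then. CAC replicate 5 had the lowest median of the CAC libraries for the 636 genes (-0.0776), so leaving it out favours them and the overlap is no independent evidence. Without CAC replicate 3 there were 279, of which 244 were higher and 35 lower. Without NCAC replicate 1 there were 7. Without CAC replicate 1, CAC replicate 4, or NCAC replicate 3, 4 or 5, there was none, and without CAC replicate 2 or NCAC replicate 2 there was 1. These libraries were left out in turn as a check and not as a new grouping, since nothing in the labels sets CAC replicate 5 apart from the other cachectic mice.

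With Zfp459 counted, 83 genes had an adjusted p under 0.1 by limma, 78 higher and 5 lower in CAC. None of the others is a call. Grrp1, a vascular gene that was among the endothelial markers, had 4.68, 8.91, 4.22, 6.76 and 4.49 TPM in CAC libraries, against 2.07, 3.23, 3.76, 3.2 and 2.4 TPM in NCAC libraries. The groups did not overlap, and the difference was 0.76 (SE 0.175, adjusted p = 0.0749 by limma, n = 5 each). Eno3, the muscle form of the glycolytic enzyme enolase, was named after its values were seen. Its levels were 22.1, 10.2, 8.36, 13.2 and 9.43 TPM in CAC libraries, against 7.28, 7.66, 6.55, 8.28 and 7.28 TPM in NCAC libraries. CAC replicate 1 was the highest, every CAC library was above every NCAC library, and the adjusted p was 0.0749 by limma. The difference of Eno3 was 0.62, and 0.41 without CAC replicate 1.

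Rbm3 and Cirbp encode RNA-binding proteins that are known to be induced by mild cold. Rbm3 had 123, 122, 88.9, 103 and 72.3 TPM in CAC libraries, against 67, 59.5, 61.7, 60.9 and 70.2 TPM in NCAC libraries. Mock libraries had 55.4 to 68 TPM. All CAC libraries were above all NCAC libraries, CAC replicate 5 by the smallest margin, and the difference was 0.64 (SE 0.156, adjusted p = 0.0887 by limma, n = 5 each). At 6 and 8 weeks Rbm3 differed by 0.72 and 0.60 and was called both times, with adjusted p of 0.00389 and 0.00684 by limma. Cirbp had 138, 103, 81.2, 88.1 and 83 TPM in CAC libraries, against 71.1, 62.7, 81.7, 62.2 and 85.8 TPM in NCAC libraries, so its groups overlapped (difference 0.42, adjusted p = 0.223 by limma). Of the 17 heat shock and cold genes tested, 2 were higher and none lower at an unadjusted p under 0.05, and 14 lay below 0, with a median of -0.0956. Among all genes 13.7% were higher and 2.62% lower at that p, and 33.2% lay below 0.

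mt-Nd6, a complex I subunit and the only protein gene on its strand of the mitochondrial genome, was the lowest-p gene on the lower side. It had 354, 354, 276, 244 and 286 TPM in CAC libraries, against 426, 471, 528, 490 and 513 TPM in NCAC libraries. Every CAC library lay below every NCAC library, but mock libraries had 354 to 535 TPM and reached the level of CAC replicates 1 and 2. The difference was -0.69 (SE 0.177, adjusted p = 0.0911 by limma, n = 5 each). The sources used here do not say whether counting used strand, so reads of mt-Nd6 and of transcripts opposite to it may be mixed. All 13 mitochondrial genome genes tested lay below 0, with a median of -0.0859, and 4 did so at an unadjusted p under 0.05. Among all genes 33.2% lay below 0, and 2.62% were lower at that p. Mitochondrial genes together held 247747 to 259957 TPM in CAC replicates 1 to 4 and 291459 TPM in CAC replicate 5, against 266435 to 284487 TPM in NCAC libraries. CAC replicate 5 was thus above the NCAC range and the other CAC libraries were below it.

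**Figure D1:**
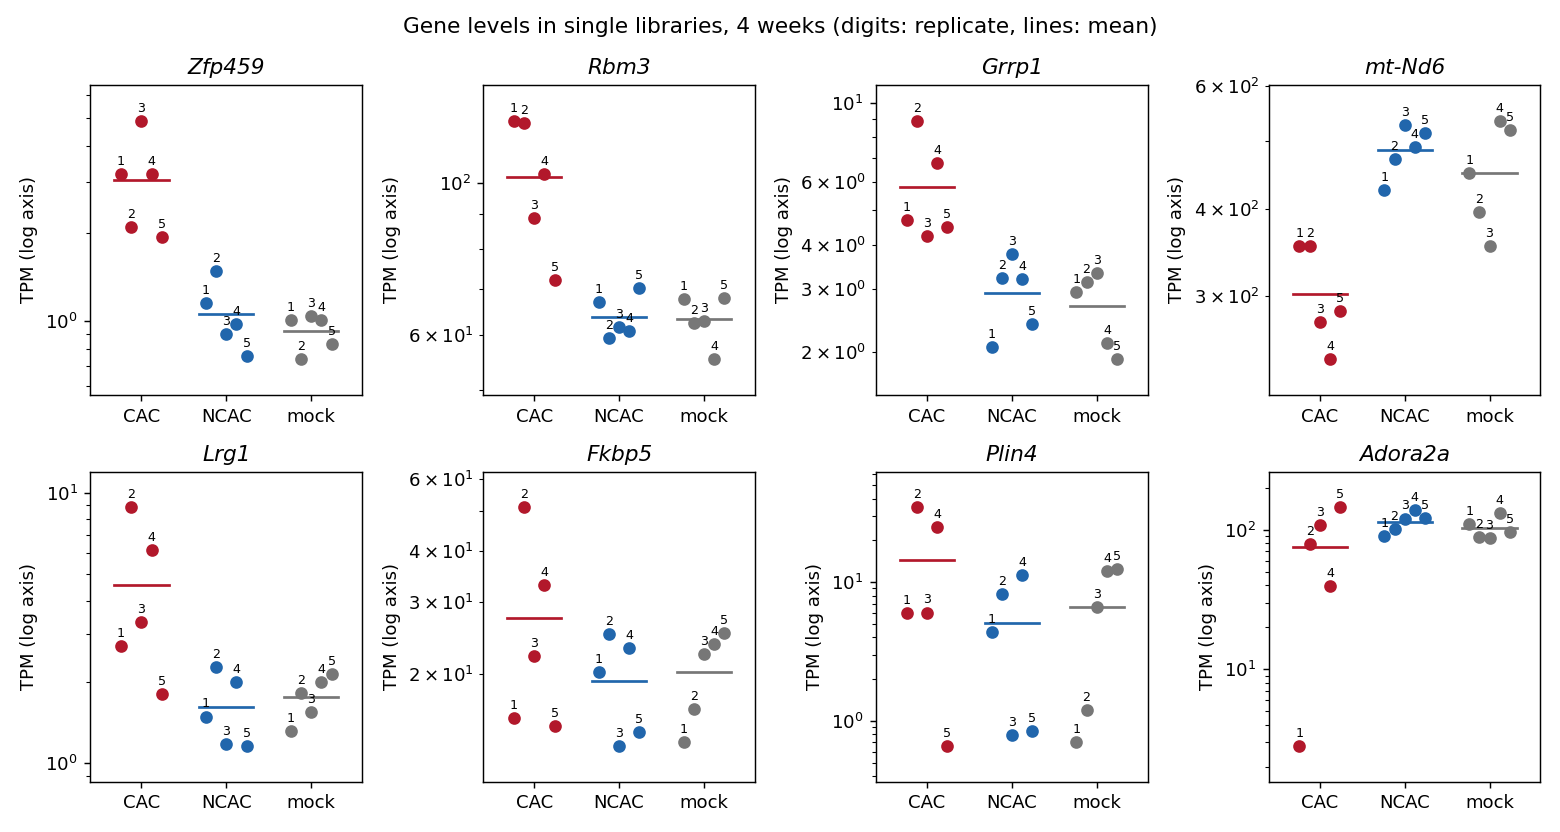
Levels of 8 genes in TPM on log axes for the CAC, NCAC and mock libraries of 4 weeks, where each point is 1 library with its replicate number and lines are group means. Zfp459, Rbm3, Grrp1 and mt-Nd6 do not overlap between CAC and NCAC, Lrg1, Fkbp5 and Plin4 are high in CAC replicates 2 and 4, and Adora2a is low in CAC replicates 1 and 4.

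Glucocorticoid targets were not called at 4 weeks, and their levels differed widely among the CAC mice. Of 29 genes tested, 28 lay above 0 with a median of 0.246, beside 66.8% and a median of 0.0479 for all genes. At an unadjusted p under 0.05 there were 4 higher and 1 lower, against backgrounds of 13.7% and 2.62%. By CAC replicate 1 to 5 the median of the list against the NCAC median was -0.0739, 0.919, 0.126, 0.646 and -0.266. By NCAC replicate, each against the other 4, it was -0.116, 0.446, -0.264, 0.41 and -0.54. CAC replicates 2 and 4 were the highest of the 10 libraries, and CAC replicate 5 lay within the NCAC range. NCAC replicates 2 and 4 also lay well above the other NCAC libraries, of which NCAC replicate 5 was the lowest.

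The members with the lowest p were Pla2g3, Arrdc2, Edn1 and Sult1a1. Pla2g3, a secreted phospholipase, had 3.19, 5.71, 1.8, 3.73 and 1.49 TPM in CAC libraries, against 1.13, 1.89, 0.879, 2.36 and 1.38 TPM in NCAC libraries (difference 0.67, SE 0.191, adjusted p = 0.106 by limma). Sult1a1, a sulfotransferase, had 17.1, 50.4, 17.8, 45.3 and 9.92 TPM in CAC libraries, against 11.6, 22.5, 8.04, 21.4 and 8.62 TPM in NCAC libraries. CAC replicates 2 and 4 were the highest of the 10 libraries in both genes, and CAC replicate 5 was within the NCAC range. Fkbp5 had 15.6, 51.1, 22.1, 32.9 and 14.9 TPM in CAC libraries, against 20.2, 25, 13.3, 23.1 and 14.4 TPM in NCAC libraries. Only CAC replicates 2 and 4 were above all NCAC libraries in Fkbp5, and its difference was 0.37 (SE 0.249, adjusted p = 0.459 by limma). Without CAC replicate 2 the difference was 0.12 for Fkbp5, against 0.37 with it, and 0.52 for Sult1a1, against 0.79. Edn1, the vasoconstrictor peptide endothelin 1, had 2.96, 2.55, 2.26, 3.23 and 3.4 TPM in CAC libraries, against 3.47, 3.54, 3.75, 3.9 and 5.25 TPM in NCAC libraries, and was the list's only member below 0 (difference -0.36, adjusted p = 0.231 by limma). Its groups did not overlap, although the highest CAC library (3.4 TPM) and the lowest NCAC library (3.47 TPM) were close. At 8 weeks 20 of the 29 genes were called higher and none lower, beside 4.39% and 1.64% of all genes, and the members Map3k6 and Fkbp5 differed by 1.72 and 1.38. The list was chosen with earlier results of these data known, so its count at 8 weeks is no independent evidence. The genes that encode the receptors and their control, such as Fkbp4 and Hsd11b1, lay evenly about 0, with 4 of 8 above it and none at an unadjusted p under 0.05.

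Glucocorticoid receptors bind DNA as dimers at inverted repeats. The motif searched was GNACA, then 3 free bases, then TGTNC, where N is any base. The RefSeq promoter table held windows for 24 of the 29 genes, 36 windows in all, and 5 windows of 4 genes held the motif on either strand (13.9%), against 127 of 32851 windows of all genes (0.387%). The 4 genes were Fam107a, Map3k6, Mt1 and Sgk1. Of these 4 genes, 3 are shown, as 250 bases before a start site on the plus strand in GRCm38.p6, with the motif in capitals: Map3k6 at chr4:133240568-133240817, Sgk1 at chr10:21993640-21993889 (1 of 6 start sites) and Mt1 at chr8:94178839-94179088. They are shown because the list's level differed widely between mice, and a match is a description, not a site of binding.
Map3k6: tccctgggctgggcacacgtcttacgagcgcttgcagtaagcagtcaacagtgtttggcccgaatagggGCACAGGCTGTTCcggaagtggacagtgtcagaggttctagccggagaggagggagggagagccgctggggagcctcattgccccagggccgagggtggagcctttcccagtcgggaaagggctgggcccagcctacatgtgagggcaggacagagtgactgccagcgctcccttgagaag
Sgk1: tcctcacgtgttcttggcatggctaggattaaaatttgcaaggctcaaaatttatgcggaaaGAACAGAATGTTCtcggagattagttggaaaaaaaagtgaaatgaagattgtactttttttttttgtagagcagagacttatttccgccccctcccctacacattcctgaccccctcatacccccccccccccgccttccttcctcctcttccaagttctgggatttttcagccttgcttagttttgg
Mt1: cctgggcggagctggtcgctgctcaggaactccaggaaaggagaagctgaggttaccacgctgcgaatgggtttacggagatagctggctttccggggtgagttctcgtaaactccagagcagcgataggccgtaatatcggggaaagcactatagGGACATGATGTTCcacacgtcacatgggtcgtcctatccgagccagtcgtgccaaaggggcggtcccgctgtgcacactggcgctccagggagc
The motif begins 181 bases before the start site in Map3k6, 188 in Sgk1 and 94 in Mt1. Map3k6, a stress-activated kinase, had 1.8, 6.9, 1.68, 5.31 and 0.772 TPM in CAC libraries, against 1.4, 2.57, 0.607, 1.64 and 0.709 TPM in NCAC libraries. Sgk1 had 40.6, 108, 61.8, 77.4 and 26.1 TPM in CAC libraries, against 37.7, 49.4, 33.9, 76.4 and 25.8 TPM in NCAC libraries. Mt1, a metal-binding metallothionein, had 685, 1030, 777, 1060 and 752 TPM in CAC libraries, against 671, 933, 720, 810 and 777 TPM in NCAC libraries. In each of the 3 genes shown CAC replicates 2 and 4 were the highest of the 10 libraries. In Sgk1 CAC replicate 4 (77.4 TPM) was barely above NCAC replicate 4 (76.4 TPM). The adjusted p was 0.247, 0.418 and 0.669 by limma for Map3k6, Sgk1 and Mt1. Levels of Fam107a, which also holds the motif, are not given here, so this does not describe all genes with the motif. The difference of Map3k6 was 0.68, and 0.40 without CAC replicate 2.

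Cytokine and acute phase genes were likewise highest in CAC replicates 2 and 4. Of 17 genes tested, 14 lay above 0 with a median of 0.327, beside 66.8% of all genes. At an unadjusted p under 0.05, 6 were higher and none lower, beside 13.7% and 2.62% of all genes, and none was called. By CAC replicate the median of the list was 0.105, 0.731, 0.105, 0.725 and -0.07, while NCAC libraries ranged from -0.261 to 0.265. Lrg1, a secreted glycoprotein made by endothelium and in the acute phase response, had 2.71, 8.84, 3.34, 6.16 and 1.8 TPM in CAC libraries, against 1.49, 2.27, 1.18, 2 and 1.16 TPM in NCAC libraries. CAC replicates 1 to 4 were above all NCAC libraries, and CAC replicate 5 was within the NCAC range (difference 0.96, SE 0.289, adjusted p = 0.115 by limma). Osmr, the oncostatin M receptor, had 1.63, 2.54, 1.21, 2.73 and 1.28 TPM in CAC libraries, against 1.09, 1.4, 0.824, 1.06 and 0.932 TPM in NCAC libraries (difference 0.46, SE 0.121, adjusted p = 0.0955 by limma). Ch25h, cholesterol 25-hydroxylase, had 1.27, 2.64, 1.01, 2.33 and 0.634 TPM in CAC libraries, against 0.309, 0.878, 0.542, 0.41 and 0.302 TPM in NCAC libraries. Il1r1, the interleukin 1 receptor, differed by 0.41 with an adjusted p of 0.138 by limma. The transcripts of the cytokines themselves were scarce, as Il1b was at most 0.587 TPM in CAC and 0.583 TPM in NCAC libraries, and Il6, Tnf and Ccl2 stayed under 1 TPM in all 10. At 8 weeks 12 of the 17 genes were called higher, beside 4.39% of all genes, a count that is no independent evidence, since this list too was chosen with earlier results known. Astrocyte genes known to respond to injury had a median of 0.000521 at 4 weeks over 13 tested genes. Of these, 3 were higher and none lower at an unadjusted p under 0.05, beside 13.7% and 2.62% of all genes. At 8 weeks 7 of them were called higher and 1 lower. Interferon genes had a median of -0.0693 over 21, with none at an unadjusted p under 0.05.

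Differences in other pathways were small and not called. Of 22 cholesterol synthesis genes, 19 lay below 0 with a median of -0.121, and 6 were lower and none higher at an unadjusted p under 0.05. Among all genes 33.2% lay below 0, and at that p 2.62% were lower and 13.7% higher. Msmo1, a sterol oxidase of this pathway, had 35.7, 30.8, 37.8, 38.4 and 37.7 TPM in CAC libraries, against 41.4, 50.7, 40.6, 42.8 and 39.4 TPM in NCAC libraries, with no overlap (difference -0.25, SE 0.0889, adjusted p = 0.171 by limma). Dhcr7, the last enzyme of the pathway, differed by -0.19 (adjusted p = 0.206 by limma). Of 19 circadian clock genes 17 lay above 0, beside 66.8% of all genes, and 5 did so at an unadjusted p under 0.05, beside 13.7%. Per3, a clock repressor, had 27.7, 21.6, 17.4, 21.1 and 11.5 TPM in CAC libraries, against 15.7, 16.3, 9.9, 19.2 and 9.95 TPM in NCAC libraries, so the groups overlapped (difference 0.45, adjusted p = 0.176 by limma). The hour of tissue collection is unknown. Immediate early genes, which follow neuronal firing, had a median of -0.147, and by CAC replicate -0.849, 0.415, -0.17, 0.103 and -0.777, while NCAC libraries ranged from -0.823 to 0.679. The spread between mice of 1 group was thus larger than the difference between the groups for this list. Lpl, lipoprotein lipase, had 12.5, 17.6, 18.9, 11.9 and 22.3 TPM in CAC libraries, against 20.6, 18.9, 22.1, 20.6 and 25.1 TPM in NCAC libraries (difference -0.38, adjusted p = 0.131 by limma). The lists of fatty acid oxidation and synaptic genes had medians of 0.0171 and 0.017, with 1 member in each direction at an unadjusted p under 0.05 in each list.

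Markers of glia and vessels were not called either. All 17 microglia markers tested lay below 0, with a median of -0.138, beside 33.2% of all genes below 0. At an unadjusted p under 0.05, 2 were lower, beside 2.62% of all genes. P2ry13, a purine receptor of microglia, had 14, 9.51, 15.6, 14.9 and 21.7 TPM in CAC libraries, against 20.8, 18.3, 18.5, 19 and 19.4 TPM in NCAC libraries. CAC replicates 1 to 4 lay below all NCAC libraries and replicate 5 above them (difference -0.37, SE 0.133, adjusted p = 0.171 by limma). Without CAC replicate 2 the difference of P2ry13 was -0.22. The summed microglia markers were 716, 713, 735, 932 and 856 TPM in CAC libraries, against 810 to 962 TPM in NCAC libraries, so CAC replicates 4 and 5 were inside the NCAC range. Oligodendrocyte precursor markers had a median of -0.134 over 13 genes, and mature oligodendrocyte markers -0.0379 over 14. Of the precursor markers 2 were lower and none higher at an unadjusted p under 0.05, beside 2.62% and 13.7% of all genes. Of the mature markers 1 was higher and 1 lower at that p. Endothelial markers summed to 1020 to 1180 TPM in CAC and 1100 to 1150 TPM in NCAC libraries. Ly6c1, a surface protein of endothelium, had 73.1, 89.1, 55.7, 79.3 and 61 TPM in CAC libraries, against 55.4, 64.9, 54, 65.3 and 54.7 TPM in NCAC libraries (difference 0.26, adjusted p = 0.22 by limma).

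**Figure D2:**
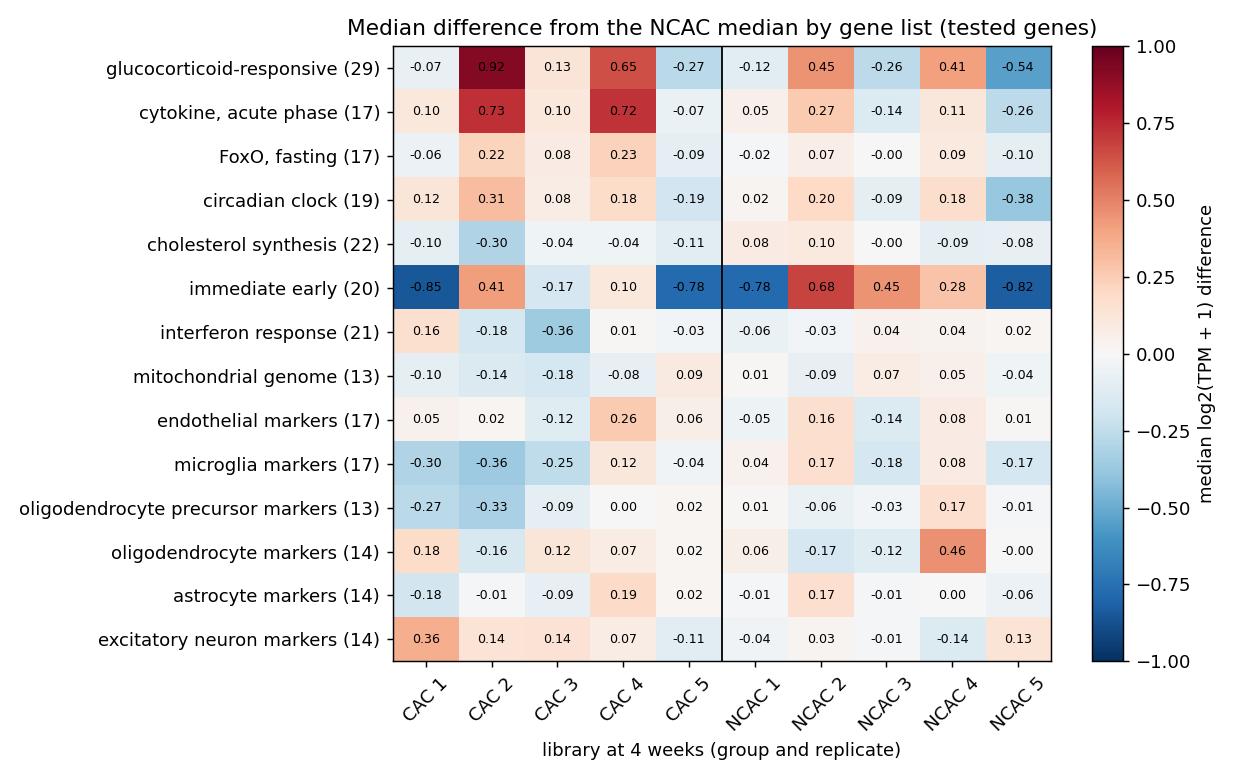
Median log2(TPM + 1) difference of 14 gene lists in each CAC and NCAC library of 4 weeks, with the number of tested genes in brackets, CAC libraries being set against the median of the 5 NCAC libraries and each NCAC library against the other 4. Glucocorticoid and cytokine genes stand highest in CAC replicates 2 and 4, at 0.919 and 0.646, and 0.731 and 0.725.

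The genes called at later weeks were read at 4 weeks, in other mice. CAC against NCAC gave 1167 higher (8.05%) and 232 lower genes (1.6%) at 6 weeks, and 636 higher (4.39%) and 237 lower genes (1.64%) at 8 weeks. At 2 weeks limma called 0 genes higher and 0 lower (0% each), 616 genes had an unadjusted p under 0.05, and each alternative fit also called 0. Of the 636 genes higher at 8 weeks, 597 lay above 0 at 4 weeks, which is 93.9%, beside 66.8% of all genes. Of the 237 lower at 8 weeks, 204 lay below 0 at 4 weeks, which is 86.1%, beside 33.2% of all genes. The shares for the genes of 6 weeks were 95.6% and 90.9%. With TMM scaling, which put 50% of all genes above 0, the shares for the genes of 8 weeks were 86.5% and 93.2%. Genes of 1 library are not independent of each other, so these shares are descriptions and carry no test. The median difference of the 636 genes was 0.14 at 4 weeks, 0.311 at 8 weeks and 0.000644 at 2 weeks. That of the 237 genes was -0.126 at 4 weeks, -0.388 at 8 weeks and -0.00609 at 2 weeks. Both sets were picked for passing at 8 weeks, which favours large values in that week. The smaller medians of the other weeks follow in part from this choice and do not show a growing difference. None of these 873 genes was called at 4 weeks.

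The difference between weeks was tested as an interaction. The CAC to NCAC difference at 4 weeks did not pass the test against that at 2, 6 or 8 weeks for any gene (0%) by limma. Unadjusted p was under 0.05 in 446, 645 and 740 genes. The lowest adjusted p by limma was 0.0651 (Zfp459, a change of 1.27 between 2 and 4 weeks), 0.902 and 0.204, and other fits gave 0 to 1, 0 to 1 and 0 to 11 calls. Week 4 was thus not shown to differ in any gene from the weeks around it, nor shown to be alike.

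**Figure D3:**
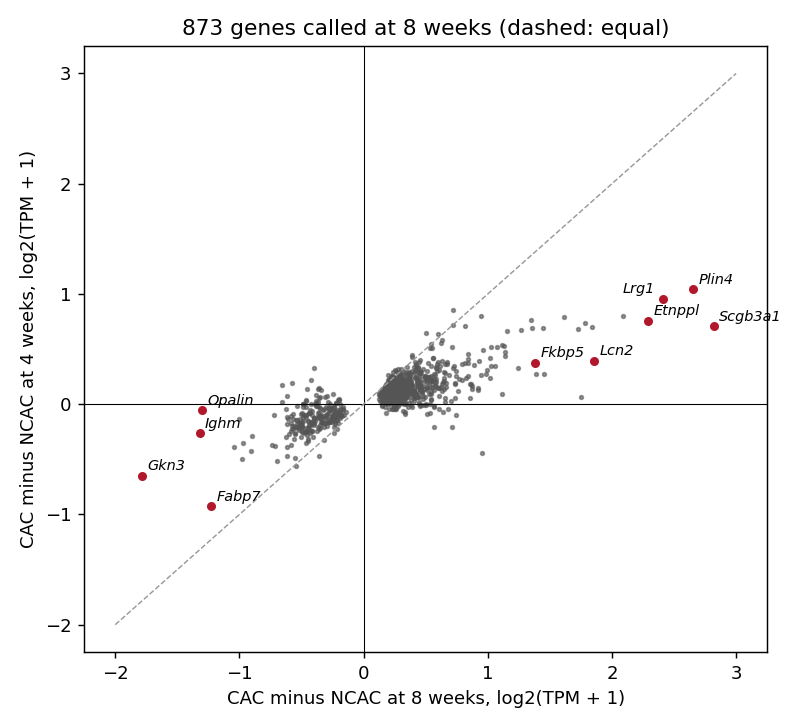
Differences CAC minus NCAC on the log2(TPM + 1) scale at 8 weeks (horizontal) and at 4 weeks (vertical) for the 873 genes called at 8 weeks, with 10 genes named. Most points lie on the same side of 0 in both weeks (93.9% of the higher and 86.1% of the lower genes) and closer to 0 at 4 weeks. The choice of genes by their values at 8 weeks favours the latter.

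A list of 12 late genes had been picked from earlier results of these data, so their direction at 8 weeks is no independent evidence. At 8 weeks 6 were called higher and 6 lower, and at 4 weeks 6 lay above and 6 below 0. Scgb3a1, a small secretoglobin, had 0.624, 3.17, 0.959, 2.13 and 0.44 TPM in CAC libraries, against 0.349, 0.466, 0.334, 0.347 and 0.455 TPM in NCAC libraries. CAC replicates 2 and 4 were the highest and replicate 5 was within the NCAC range. At 8 weeks Scgb3a1 differed by 2.82, and at 4 weeks by 0.71 (adjusted p = 0.33 by limma). Etnppl, an enzyme of phosphoethanolamine breakdown in astrocytes, had 3.18, 16.2, 3.57, 13.9 and 2.78 TPM in CAC libraries, against 4.57, 4.16, 2.81, 3 and 2.07 TPM in NCAC libraries. Here replicates 1, 3 and 5 of CAC lay inside the NCAC range. Plin4, a lipid droplet coat protein, had 6.03, 34.5, 6.04, 24.8 and 0.661 TPM in CAC libraries, against 4.36, 8.27, 0.795, 11.3 and 0.848 TPM in NCAC libraries (difference 1.04, SE 0.653, adjusted p = 0.426 by limma). Lcn2, the iron-siderophore carrier lipocalin 2, had 0.796, 2.17, 0.301, 1.31 and 0.201 TPM in CAC libraries, against 0.636, 0.718, 0.178, 0.502 and 0.0519 TPM in NCAC libraries. CAC replicates 1, 2 and 4 were above all NCAC libraries in Lcn2, and its difference of 0.40 had an adjusted p of 0.373 by limma. These values leaned on single libraries: without CAC replicate 2 the difference was 0.20 for Lcn2, 0.57 for Plin4 and 0.44 for Etnppl, and without CAC replicate 4 it was 0.68 for Plin4 and 0.49 for Etnppl. Without CAC replicate 5 it was 1.67 for Plin4.

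On the lower side, Apln, the vascular peptide apelin, had 19, 12.6, 21.1, 16.1 and 26.4 TPM in CAC libraries, against 26.5, 25.4, 22.8, 26 and 25.4 TPM in NCAC libraries. CAC replicates 1 to 4 lay below all NCAC libraries and replicate 5 did not (difference -0.43, SE 0.171, adjusted p = 0.204 by limma). Gkn3, a marker of arterial endothelium, had 3.49, 1.02, 7.45, 2.63 and 9.23 TPM in CAC libraries, against 8.61, 8.15, 3.66, 8.17 and 6.2 TPM in NCAC libraries. Hmgcs1, an early enzyme of cholesterol synthesis, had 209, 175, 220, 211 and 225 TPM in CAC libraries, against 251, 241, 240, 220 and 235 TPM in NCAC libraries (difference -0.20, adjusted p = 0.254 by limma). CAC replicate 2 was the lowest of the 10 libraries in each of these 3 genes, and without it the difference of Gkn3 was -0.33, against -0.65 with it. Opalin, a myelin protein, had 50.2, 11.3, 23.6, 15.6 and 28.9 TPM in CAC libraries, against 24.1, 16.8, 27.9, 24 and 27.6 TPM in NCAC libraries, so CAC replicate 1 was the highest and replicate 2 the lowest of all 10. Its difference was -0.05 at 4 weeks and -1.30 at 8 weeks. Ighm, the immunoglobulin mu chain of B lymphocytes, had 75.3, 24, 46.7, 30.1 and 50.2 TPM in CAC libraries, against 50.5, 44, 48.9, 53.6 and 55.7 TPM in NCAC libraries. P2ry12, another purine receptor of microglia, had 43.6 to 64 TPM in CAC and 52 to 62.7 TPM in NCAC libraries (difference -0.12, adjusted p = 0.654 by limma). The difference of Ighm was -0.26, and -0.47, -0.066 and -0.15 without CAC replicate 1, 2 or 4, and that of P2ry12 was -0.049 and -0.18 without CAC replicate 2 or 4.

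**Figure D4:**
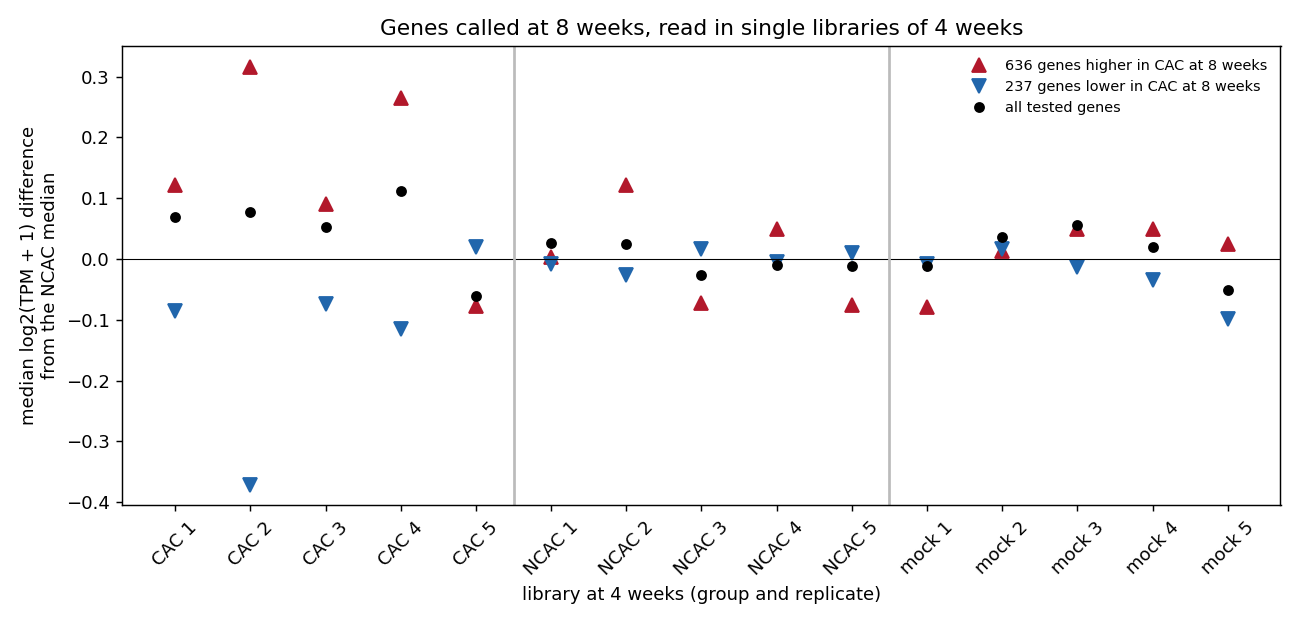
Median log2(TPM + 1) difference from the NCAC median in each library of 4 weeks, for the 636 genes higher and the 237 lower in CAC at 8 weeks and for all tested genes, each NCAC library being set against the other 4. CAC replicates 2 and 4 stand highest for the 636 genes (0.316 and 0.264), and CAC replicate 5 stands at -0.0776.

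The CAC libraries were unlike each other, and are described in turn. Across genes, the SD was larger in CAC than in NCAC for 84.5% of genes, and for 76.3% with replicate 1 of both groups left out. The median SD on the log2(TPM + 1) scale was 0.177 in CAC and 0.0961 in NCAC. Genes more than 1 log2 unit from the NCAC median numbered 572, 116, 43, 169 and 49 in CAC replicates 1 to 5. The same count for each NCAC library against the other 4 was 81, 47, 69, 64 and 74. CAC replicates 3 and 5 were thus no farther from the NCAC median than NCAC libraries were from each other, and CAC replicate 1 was the farthest. Since the NCAC libraries were compared with a median of 4 and the CAC libraries with a median of 5, the counts are not on quite the same footing.

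CAC replicate 1 was set apart by genes of the striatum, the region below the cortex. Its 6 largest negative differences were Adora2a, Drd2, Penk, Syndig1l, Serpina9 and Rgs9, of which Adora2a, Drd2, Penk and Rgs9 are in the striatum marker list. Adora2a, the adenosine A2a receptor, had 2.83, 78.2, 108, 39.4 and 144 TPM in CAC libraries, against 89.7, 101, 120, 138 and 121 TPM in NCAC libraries. Drd2, the dopamine D2 receptor, had 1.73, 53, 55.1, 19.7 and 71.8 TPM in CAC libraries, against 48.5, 56.6, 59.7, 71.5 and 60.8 TPM in NCAC libraries. Replicates 1 and 4 were low in both genes, and the 3 other CAC libraries were near the NCAC level. Over all libraries Adora2a and Drd2 differed by -1.32 and -1.19, and without CAC replicate 1 by -0.43 and -0.38. Its 6 largest positive differences were Btg3, Hba-a2, Ccl27b, Col5a1, Mid1 and Thpo. Col5a1, a collagen chain, had 36.6 TPM in CAC replicate 1 against 4.87 to 6.81 TPM in NCAC libraries, and Mid1, a ubiquitin ligase, 27.8 TPM against 3.03 to 7.81 TPM. These values of Col5a1 and Mid1 were the highest of the 62 libraries. The noncoding RNA Meg3 stood at 1060 TPM in this library, against 272 to 424 TPM in NCAC and 288 to 489 TPM in mock libraries. It had 561, 406, 642 and 340 TPM in CAC replicates 2 to 5, so replicates 2 and 4 were also above all NCAC and mock libraries. In CAC replicate 1 the list median of the 636 genes was 0.121. Of these genes 70.8% lay above the NCAC median, beside 59.3% of all genes.

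CAC replicate 2 held the largest shares of late genes on their later side among the 5 CAC libraries. Of the 636 genes higher at 8 weeks 97.3% lay above the NCAC median in this library, beside 63.9% of all genes. Of the 237 lower genes 95.8% lay below it, beside 36% of all genes. Its large positive differences included Plin4, Ccl27b, Tmem252, Cebpd and Etnppl. Tmem252, a small membrane protein, had 8.46 TPM against 0.387 to 1.5 TPM in NCAC libraries, and Cebpd, an acute phase transcription factor, 19.1 TPM against 2.65 to 6.4 TPM. The Cebpd value was the highest of the 62 libraries. Its 6 largest negative differences were Capn11, Avp, Padi2, Gkn3, Fabp7 and Lyrm7. Fabp7, a fatty acid carrier of glial progenitors, had 15.9 TPM, against 42.5 to 144 TPM in NCAC libraries and 31.4 to 82.9 TPM in the other CAC libraries. Its striatum markers summed to 2460 TPM, within the NCAC range of 2110 to 3110 TPM.

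CAC replicate 3 held the fewest genes far from the NCAC median. It had the highest Zfp459 level of the 62 libraries, 4.88 TPM, and its other large positive differences included Ccl27b, Acvr1c, Ttr and Capn11. Ttr, the thyroid hormone carrier of choroid plexus, had 3050 TPM against 530 to 1810 TPM in NCAC libraries. The 14 choroid plexus markers of this library summed to 3170 TPM against 597 to 1960 TPM, a sum that was mostly Ttr. By the median difference of these markers CAC replicate 3 stood at 0.811, below CAC replicate 4 (1.41) and NCAC replicate 4 set against the other NCAC libraries (1.09). The 6 largest negative differences of CAC replicate 3 were Tuba1c, Ccl28, Dynlt1a, Gchfr, Mcm6 and H2-Q4. Mcm6, a helicase subunit of DNA replication, had 1.38 TPM against 3.19 to 5.41 TPM in NCAC libraries. Of the 636 genes 79.2% lay above the NCAC median, beside 70% of all genes. NCAC replicate 2, set against the other 4 NCAC libraries, had 80.3%, beside 58.5% of all genes, more than CAC replicates 1 and 3. The other NCAC libraries had 26.6% to 64.3%, beside 40.2% to 59.9% of all genes, and mock libraries 26.6% to 67.8%, beside 31.3% to 69.6%. NCAC replicate 4 (64.3% beside 46.4%) and mock replicates 4 (63.7% beside 57%) and 5 (59.4% beside 31.3%) exceeded their own share of all genes. NCAC replicates 1, 3 and 5 and mock replicates 1, 2 and 3 did not.

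CAC replicate 4 was high in genes higher at 8 weeks and low in striatum markers. Of the 636 genes 93.1% lay above the NCAC median, beside 71.2% of all genes. Of the 237 lower genes 75.9% lay below it, closer to the 62.9% and 68.4% of CAC replicates 1 and 3 than to the 95.8% of replicate 2. For these lower genes the NCAC libraries had 43.9% to 56.5%, beside 40% to 59.8% of all genes. Mock replicate 5 had 76.4%, more than CAC replicates 1, 3 and 4, and the other mock libraries 45.6% to 65.4%. Of all genes, 28.8% lay below the NCAC median in CAC replicate 4, and 40.7% and 30% in CAC replicates 1 and 3. The share was 68.6% in mock replicate 5 and 30.3% to 53.2% in the other mock libraries. The 6 largest positive differences of CAC replicate 4 were Cwc22, Hba-a2, Shox2, Prkcd, Folr1 and Plin4. Shox2 and Prkcd are in the thalamus marker list, and stood at 7.24 TPM against 0.0804 to 5.75 TPM and at 42.4 TPM against 6.87 to 34.1 TPM in NCAC libraries. Its 6 largest negative differences were Tuba1c, Ttr, Avp, Nt5dc3, Serpina9 and Rgs9. Its Ttr level was 118 TPM, while Folr1, a folate receptor of choroid plexus, was the highest of the 62 libraries at 26.4 TPM against 2.46 to 12.7 TPM in NCAC libraries.

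CAC replicate 5 stood within the NCAC range in the medians of the glucocorticoid and cytokine lists. It was still above every NCAC library in Zfp459, Rbm3, Grrp1 and Eno3, and below every NCAC library in mt-Nd6. Of the 636 genes 30% lay above the NCAC median, beside 32.6% of all genes. Of the 237 lower genes 41.4% lay below it, beside 67.4% of all genes. Large positive differences of this library included Pagr1a, Lars2, S100a5, Omp and Capn11. S100a5 (9.91 TPM) and Omp (6.6 TPM) lay inside the NCAC ranges of 0.473 to 35.3 TPM and 0.635 to 19.9 TPM. Capn11 had 15.2 TPM against 0.221 to 6.91 TPM in NCAC libraries, with 15 TPM in CAC replicate 3 and 0.0807 TPM in CAC replicate 2. The 6 largest negative differences of CAC replicate 5 were Tuba1c, Arc, Fos, Nr4a1, Egr2 and Fam205a3. Arc, Fos, Nr4a1 and Egr2 are immediate early genes. Arc, a synaptic protein, had 36.8 TPM against 34.3 to 318 TPM in NCAC libraries, and Fos, a transcription factor, 7.87 TPM against 6.28 to 49.8 TPM, so both were near the lowest NCAC library. Lars2, the mitochondrial leucyl-tRNA synthetase, stood at 148 TPM against 23.1 to 28 TPM in NCAC libraries, the highest value of the 62 libraries.

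Several genes that led single libraries have near-identical copies or listed values that jump between 0 and a high level, so their values are uncertain. Within the NCAC group alone, Tuba1c ran between 3.58 and 153 TPM, Hba-a2 between 33.5 and 444 TPM, Ccl27b between 0 and 4.07 TPM and Cwc22 between 6.87 and 89.3 TPM. Pagr1a ran between 0.619 and 4.62 TPM and Dynlt1a between 3.17 and 12.1 TPM.

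Markers of neighbouring regions differed with the libraries, and their part in the results was not tested beyond the fits named here. All 17 striatum markers lay below 0 with a median of -0.775, beside 33.2% of all genes below 0. Of these markers 16 were lower at an unadjusted p under 0.05, beside 2.62% of all genes, and none was called. Their sum was 355, 2460, 2450, 992 and 2880 TPM in CAC libraries, against 2110, 2430, 2570, 3110 and 2420 TPM in NCAC libraries. None of them was at 0 in all 10 libraries. Without CAC replicates 1 and 4, a fit chosen after the data were seen, Drd2 differed by 0.0106 and no gene was called. Penk, the precursor of enkephalins, had 37.7 and 302 TPM in those replicates, and 612, 699 and 838 TPM in CAC replicates 2, 3 and 5, against 643 to 934 TPM in NCAC libraries. Thalamus markers, 12 genes, summed to 124 to 146 TPM in CAC replicates 1, 2, 3 and 5 and 297 TPM in replicate 4, against 277 TPM in NCAC replicate 1 and 139 to 180 TPM in the other NCAC libraries. Hypothalamus and pituitary markers, 14 genes, summed to 13.2 to 42 TPM in CAC libraries, against 461 TPM in NCAC replicate 1 and 28.2 to 71.2 TPM in the other NCAC libraries. Olfactory markers summed to 56.7 to 148 TPM in CAC libraries, against 245 TPM in NCAC replicate 3 and 97.7 to 155 TPM in the other NCAC libraries. Choroid plexus markers summed to 180 to 3170 TPM in CAC and 597 to 1960 TPM in NCAC libraries. Ttr alone had 530 to 1810 TPM in NCAC libraries, so the sums there were mostly that gene. By the median difference of these markers CAC replicate 4 was the highest of the 10 libraries (1.41), although its sum was 346 TPM. Meningeal fibroblast markers summed to 1370, 1670, 1270, 2000 and 1390 TPM in CAC libraries, against 1120, 1340, 904, 1340 and 1060 TPM in NCAC libraries. Erythroid markers summed to 4770, 4650, 2760, 2700 and 2170 TPM in CAC libraries, against 1840, 2500, 1900, 2670 and 2240 TPM in NCAC libraries, highest in CAC replicates 1 and 2. Neutrophil markers summed to 3.74 to 37.1 TPM in CAC, highest in replicate 2, and 4.83 to 19.8 TPM in NCAC libraries. The glucocorticoid and late-gene medians were high in CAC replicates 2 and 4, of which replicate 2 had striatum markers within the NCAC range and replicate 4 did not.

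**Figure D5:**
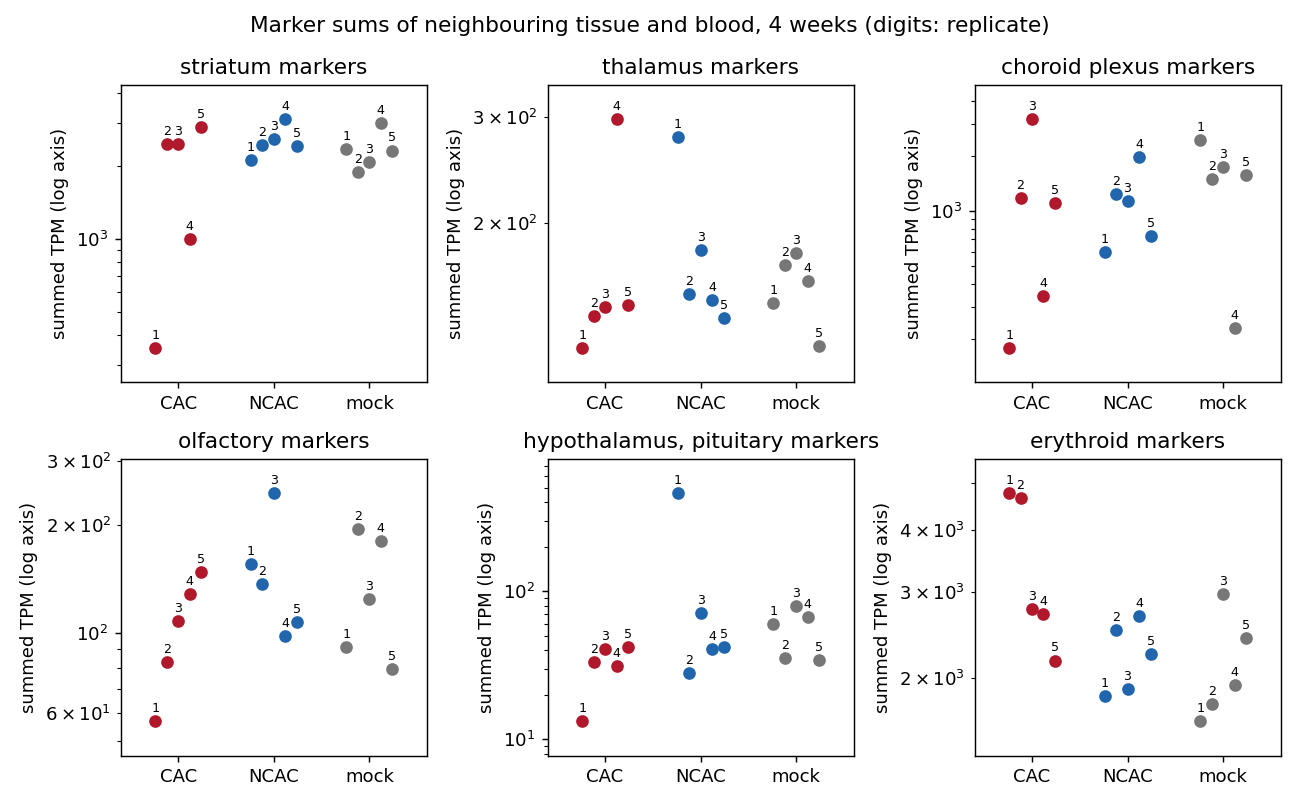
Summed TPM of 6 marker lists on log axes in the CAC, NCAC and mock libraries of 4 weeks, each point 1 library with its replicate number. Striatum markers are low in CAC replicates 1 and 4 (355 and 992 TPM), and thalamus markers are high in CAC replicate 4 (297 TPM) and NCAC replicate 1 (277 TPM). The choroid plexus sums of CAC replicate 3 and the NCAC libraries are mostly Ttr.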

How the data were processed

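RNA of mouse neocortex was extracted with Trizol, made into stranded poly(A) libraries with the TruSeq kit and sequenced on a NovaSeq instrument, per the labels' protocols. That text also names LLC cells and another time point, so how far it describes these libraries is uncertain. The authors deposited 1 table of TPM values for 47643 genes in 62 libraries, each column summing to 1000000. Reads were placed on mm10, a build named per the submitters' processing notes. Aligner, quantification tool and annotation: not given in the sources used here. TPM keeps no library total, so the depth behind a value was not computed and no counting interval is given.

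The 14494 genes whose mean reached 1 TPM were fitted as log2(TPM + 1) with limma 3.58.1 (R 4.3.3) and a variance trend. A single linear model held 12 groups and left 50 residual degrees of freedom. P-values were adjusted by Benjamini-Hochberg over all tested genes of each comparison. No 2 of the 62 libraries held identical values, and each counted as 1 sample. P-values measure the spread between samples the labels call biological replicates, pooled over the 12 groups. At 4 weeks the median SD was 0.177 in CAC and 0.0961 in NCAC libraries, so the pooled spread need not be that of either group. Named genes were those called, up to 4 lowest-p members of each gene list, the 6 largest and 6 smallest differences of each CAC library, a fixed list of late genes and leading genes of 8 weeks. A gene that this rule names is not reported here. Other members of a list that are named here, Eno3, Tyr, Mlana, Dct and Meg3 were picked after their values were seen. Groups and lists were chosen with earlier results of these data known. Gene coordinates are from GENCODE vM21, and promoter sequences from RefSeq (GRCm38.p6), matched by symbol. The fit was also run on simulated data with 1 SD per gene in all groups, which cannot show how it behaves under the wider spread of the CAC libraries. Alternatives were a pseudocount of 0.1, no filter, TMM scaling (trimming 30% by ratio and 5% by level), robust moderation, array weights, a replicate block, a lane term, a striatum score term, only the groups compared, and leaving out libraries.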

Additional observations from a re-analysis of the deposited data

Results flagged for a closer look

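Among 36 genes and 19 marker sums, each looked at in the CAC and the NCAC group of 4 weeks, 4 of 110 groups of 5 held a library that lay far from the other 4, where chance gives about 1 in 20. The sum of thalamus markers in CAC replicate 4 was 297 TPM, against 124 to 146 TPM in the other CAC libraries. The sum of hypothalamus and pituitary markers in NCAC replicate 1 was 461 TPM, against 28.2 to 71.2 TPM in the other NCAC libraries. The sum of oligodendrocyte markers in NCAC replicate 4 was 4340 TPM, against 2990 to 3330 TPM in the others. Edn1 in NCAC replicate 5, the only library of the 10 on lane 4, was 5.25 TPM, against 3.47 to 3.9 TPM in the others. What sets these libraries apart was not tested.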

How the results depend on the processing

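At 4 weeks the single call, Zfp459, held with a pseudocount of 0.1, TMM scaling, robust moderation and array weights. The count was 0 with no filter on level, with lane as a term, with only the groups compared, with a striatum marker score as a term, without the 3 libraries apart in region markers (CAC replicate 1, NCAC replicates 1 and 3), and without CAC replicates 1 and 4, a fit added after the data were seen. Over the fits that leave out 1 library it ran from 0 to 1566. Zfp459 stayed between 0.803 and 1.41 and was called in 9 of 21 alternatives (adjusted p 0.000212 to 0.999 by limma). At 6 weeks the 1399 calls became 904 with no filter, 739 with TMM scaling, 5091 with array weights and 628 with only the groups compared, and 342 to 2508 when 1 library was left out. At 8 weeks the 873 calls became 2483 with array weights and 284 with only the groups compared, and 407 to 1640 when 1 library was left out. The share of higher genes among the calls was 83.4% at 6 weeks and 72.9% at 8 weeks, and with TMM scaling 39.6% and 46.9%. The changes from 2, 6 and 8 weeks to 4 weeks gave 1, 1 and 11 calls with array weights, and 0 to 1, 0 and 0 to 6 when 1 library was left out. Opalin ran from -0.328 to 0.185 when 1 library was left out and reversed to 0.185, 0.0786 and 0.0034 without CAC replicate 2, CAC replicate 4 or NCAC replicate 3, and Drd2 to 0.0106 without CAC replicates 1 and 4. The alternatives were run for 36 genes, and the other 34 kept their sign in all 21. Sgk1, Mt1 and the genes that led single libraries without being among the 36 were not rerun. Same-sign shares of late genes ran from 85.5% to 96.4% and 77.2% to 93.2% for genes higher and lower at 8 weeks, lowest without CAC replicate 2. With the replicate block the count was 0 at 4 weeks and 257 at 8 weeks. Same-numbered CAC and NCAC libraries of 4 weeks had deviations correlated at 0.0232, 0.128, 0.142, 0.217 and 0.171, and 2 of 5 CAC libraries correlated best with their own number. As 1 pair fell below 0.1 and no label ties the numbers to a shared litter, batch or day, they were not taken as pairs. The causes were not tested. TPM without library totals limits what can be said of low genes.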
